A study of Mus musculus with 6 samples.

Results

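The genes described here belong to the NRF2 antioxidant pathway of mouse breast cancer cells. They are the transcription factor gene Nfe2l2 (NRF2), its regulators Keap1 and Bach1, the heme oxygenase gene Hmox1, the quinone reductase gene Nqo1, the glutathione synthesis genes Gclc and Gclm, and the glutathione transferase genes Gstm1, Gstp1 and Gstp2. These 10 genes were chosen by symbol from 35905 genes with transcripts in the deposited tables, and all 10 passed the low-count filter that left 13247 genes for testing. RNA sequencing compared EO771-tdT-LM2 with EO771-tdT-Parental cells, called LM2 and Parental here, with 3 libraries of each. EO771 cells come from a mouse mammary tumour. Both lines carry the genotype label WT and were grown for 48 h to about 75% confluence in RPMI 1640 medium containing 10% fetal bovine serum. How LM2 was derived, what tdT stands for and what the tag Ac6 in the Parental titles means are not written in the labels. Whether the replicates are separate cultures is not written either, and all p-values here therefore rest on a spread between libraries that may be technical.

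NRF2 binds antioxidant response elements together with small MAF proteins and drives genes of detoxification, glutathione synthesis and NADPH supply. KEAP1 hands NRF2 to a CUL3 ubiquitin ligase for degradation and releases it when its cysteines are modified. BACH1 competes for the same elements as a repressor and leaves them when it binds heme, and Hmox1 is the best known gene under its control. NRF2 is regulated largely at the level of protein, which RNA sequencing does not measure.

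Libraries held 33922699 to 38182191 estimated counts in LM2 and 36597892 to 45849019 in Parental. Of 8 markers of breast epithelial tumour cells, 5 were below 1 CPM (library-size-scaled counts, after TMM scaling between libraries) in every library. Among these were the cadherin Cdh1 and the keratin Krt18, while the 3 tested markers were all higher in LM2, with a median log2 fold change of 2.94. The keratin Krt8 stood at 568 CPM in LM2 and 420 CPM in Parental, the keratin Krt14 at 8.47 CPM in LM2 and 1.11 CPM in Parental, and the adhesion molecule Epcam at 15.0 CPM in LM2 and 0.154 CPM in Parental. The part of this difference in the results for the 10 genes was not tested. Markers of other cell types were low. The 9 markers of leukocytes and macrophages summed to 4.11 to 4.82 CPM in LM2 and 4.83 to 5.33 CPM in Parental, and 7 of them were below 1 CPM in every library, with Cd68 at 2.68 CPM in LM2 and 1.75 CPM in Parental and Lyz2 at 0.831 CPM in LM2 and 2.51 CPM in Parental. The 6 endothelial markers summed to 5.04 to 5.24 CPM in LM2 and 4.18 to 4.88 CPM in Parental, most of it Pecam1 at 3.59 CPM in LM2 and 3.49 CPM in Parental. The 8 erythroid markers summed to 1.6 to 1.85 CPM in LM2 and 2.98 to 3.58 CPM in Parental, led by the globin Hba-a1 at 0.545 CPM in LM2 and 1.53 CPM in Parental.

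Of the 10 genes, 5 were higher in LM2 (Nfe2l2, Bach1, Gstm1, Gstp1 and Gstp2), 1 was lower (Hmox1) and 4 did not pass (Keap1, Nqo1, Gclc and Gclm). A gene was called at an adjusted p below 0.05 by edgeR (quasi-likelihood, Benjamini-Hochberg over all tested genes). The lines differed widely, and 62.4% of all tested genes were called, 31.4% higher and 31.1% lower in LM2, so the share of the 10 genes called (60%) was close to the background. The ranges of the lines lay apart in 6 of the 10 genes, against 67% of all tested genes. The median log2 fold change of the 10 genes was 0.22, against -0.00 over all tested genes.

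**Figure D1:**
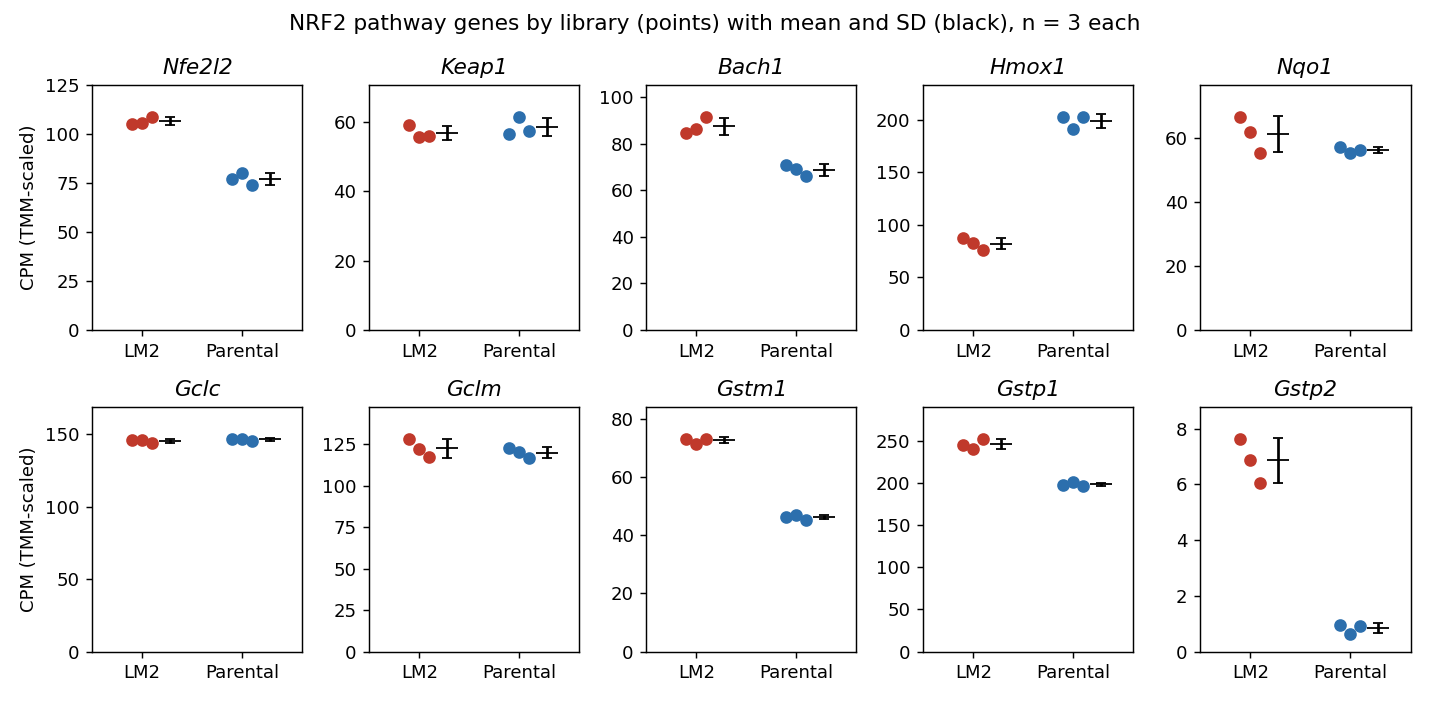
TMM-scaled CPM of each of the 10 genes in the 3 LM2 (red) and 3 Parental (blue) libraries, each panel with its own axis from 0; black marks give mean and SD. The lines separate in Nfe2l2, Bach1, Hmox1, Gstm1, Gstp1 and Gstp2, with LM2 lower only in Hmox1, and overlap in Keap1, Nqo1, Gclc and Gclm.

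The transcription factor and its repressor were both modestly higher. Nfe2l2 stood at 105, 106 and 109 CPM in the LM2 libraries, against 76.8, 80.4 and 74.3 CPM in the Parental libraries. The groups did not overlap, and the gene was 1.38-fold higher in LM2 (log2 fold change 0.47 ± 0.03 SE, edgeR adjusted p = 3.55e-11). Bach1 stood at 84.7, 86.1 and 91.4 CPM in LM2, against 71.0, 69.2 and 65.9 CPM in Parental. It too showed no overlap and was 1.27-fold higher (log2 fold change 0.35 ± 0.04 SE, edgeR adjusted p = 2.53e-08). Keap1, the inhibitor, stood at 59.2, 55.5 and 55.9 CPM in LM2, against 56.5, 61.4 and 57.4 CPM in Parental. These ranges overlap, and the log2 difference of -0.04 had an approximate 95% interval of -0.11 to 0.04 (edgeR adjusted p = 0.403). By transcript, the main Nfe2l2 coding form carried 98.3% ± 0.21 of the gene's TPM (transcript abundance scaled for length and depth) in LM2 and 98.5% ± 0.23 in Parental (SD, n = 3 each). The main Bach1 coding form carried 94.5% ± 1.3 in LM2 and 91.8% ± 3.0 in Parental. Keap1 was spread over several coding transcripts, the largest at 46% ± 3.9 in LM2 and 47.7% ± 5.7 in Parental.

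Hmox1, which encodes the inducible enzyme that opens heme to biliverdin, carbon monoxide and iron, was the only member that fell. It stood at 87.5, 82.5 and 76.6 CPM in LM2, against 203, 191 and 203 CPM in Parental. The lowest Parental library lay well above the highest LM2 library. The gene was 2.42-fold lower in LM2 (log2 fold change -1.28 ± 0.04 SE, edgeR adjusted p = 3.36e-10). Falls of more than 1 on the log2 scale were called in 278 of all tested genes (2.10%). Hmox1 lies on chromosome 8, where tested genes were lower as a group, with 453 of 702 lower and 97 higher and a median log2 fold change of -0.31. The value for Hmox1 was -0.97 relative to that median. Among the 5 tested genes on each side of it, 6 of 10 were lower and 1 was higher, with a median of -0.31 and a range of -1.13 to 0.19. Macrophages can express Hmox1 at high levels. Of the 9 leukocyte and macrophage markers 3 were tested, and the lysozyme gene Lyz2 was 3.03-fold lower in LM2 (88 counts in LM2 and 307 in Parental, edgeR adjusted p = 9.39e-07), Cd68 was 1.53-fold higher (edgeR adjusted p = 0.00539) and Cd163 did not pass. Adgre1 was at 0 in every library, and Csf1r stood at 0.114 CPM in LM2 and 0.129 CPM in Parental. The part of such cells in the Hmox1 result was not tested. As in any bulk sample, fewer cells expressing a gene and less RNA per cell cannot be told apart.

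Nqo1, which encodes a quinone reductase and is a standard NRF2 target, also lies on chromosome 8 but was not lower. It stood at 66.8, 62.2 and 55.6 CPM in LM2, against 57.4, 55.5 and 56.5 CPM in Parental. LM2 replicate 3 lay within the Parental range and the other LM2 libraries above it. The log2 fold change of 0.12 ± 0.06 SE did not pass (edgeR adjusted p = 0.0927), and relative to the chromosome 8 median the value was 0.43. The call depended on the setting. Without LM2 replicate 3 the log2 fold change was 0.19 (edgeR adjusted p = 0.000390), DESeq2 gave 0.13 (adjusted p = 0.0474), edgeR with no low-count filter 0.10 (adjusted p = 0.0300) and edgeR with the replicate number as a block 0.12 (adjusted p = 0.0269). Over all alternatives the adjusted p ranged from 0.000390 to 0.327.

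**Figure D2:**
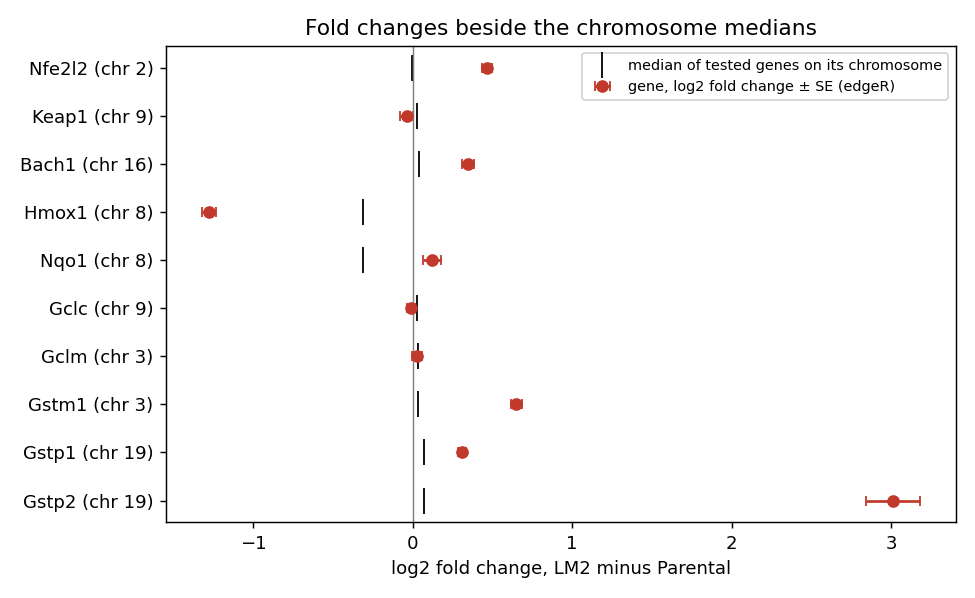
Log2 fold change (LM2 minus Parental, horizontal axis) of each gene with its SE (points and bars, edgeR) beside the median of all tested genes on the same chromosome (vertical ticks). Hmox1 at -1.28 and Nqo1 at 0.12 lie on either side of the chromosome 8 median of -0.31, and the other chromosome medians lie between -0.00 and 0.07.

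The genes for glutamate-cysteine ligase, the rate-limiting enzyme of glutathione synthesis, did not pass the test. Gclc, the catalytic subunit, stood at 146, 146 and 144 CPM in LM2, against 147, 147 and 145 CPM in Parental. Its log2 difference of -0.01 had an approximate 95% interval of -0.06 to 0.04 (edgeR adjusted p = 0.705). Gclm, the modifier subunit, stood at 128, 122 and 117 CPM in LM2, against 123, 121 and 117 CPM in Parental. Its log2 difference of 0.03 had an approximate 95% interval of -0.04 to 0.09 (edgeR adjusted p = 0.465). Both ranges overlap between the lines. The 10 tested neighbours of Gclm on chromosome 3 differed more, with 8 higher, 2 lower and a median of 1.0. Gclm counts were divided over several transcripts. A noncoding form held 28.9% ± 0.90 of the Gclm TPM in LM2 and 27.3% ± 1.1 in Parental. A short coding form held 37.8% ± 1.0 of its TPM in LM2 and 36.7% ± 1.6 in Parental, while the longest form, which took the most counts, held 11.2% ± 0.087 of the TPM in LM2 and 12.5% ± 0.81 in Parental (SD, n = 3 each).

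Transferases of the mu and pi classes join glutathione to electrophiles. Gstm1 stood at 73.2, 71.4 and 73.2 CPM in LM2, against 46.5, 46.9 and 45.4 CPM in Parental. The libraries of each line lay close together and far from the other line, and the gene was 1.57-fold higher in LM2 (log2 fold change 0.65 ± 0.03 SE, edgeR adjusted p = 1.77e-13). Of its 31-base words, the unit by which kallisto matches reads, 28.8% also occur in transcripts of other genes. The largest overlap of its main transcript was with the pseudogene Gstm2-ps1, which shares 339 of 1259 words. Within the mu class Gstm1 took 76.4% ± 0.72 of the summed TPM in LM2 and 65.8% ± 1.1 in Parental (SD, n = 3 each). Gstm2, its neighbour on chromosome 3, stood at 16.0 CPM in LM2 and 16.3 CPM in Parental and did not pass (edgeR adjusted p = 0.737). Gstm7 fell by 0.95 on the log2 scale to 1.59 CPM in LM2, against 3.09 CPM in Parental (edgeR adjusted p = 0.000191). Summed as 1 feature, the Gstm genes were 1.37-fold higher in LM2 (log2 fold change 0.46 ± 0.03 SE). That sum leaves out pseudogenes such as Gstm2-ps1.

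Gstp1 was the most abundant of the 10 genes per length. It stood at 245, 240 and 252 CPM in LM2, against 197.4, 200.5 and 196.3 CPM in Parental. The groups did not overlap, and Gstp1 was 1.24-fold higher (log2 fold change 0.31 ± 0.03 SE, edgeR adjusted p = 5.24e-10). Gstp2, its neighbour on chromosome 19, stood at 7.64, 6.88 and 6.05 CPM in LM2, against 0.967, 0.634 and 0.917 CPM in Parental. Every LM2 library lay far above every Parental library, and Gstp2 was 8.06-fold higher (log2 fold change 3.01 ± 0.17 SE, edgeR adjusted p = 9.26e-13). Counts behind the low Parental level were few, 104 over 3 libraries against 728 in LM2.

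Gstp1 and Gstp2 are near copies, so their reads are hard to assign. The coding sequences of their main transcripts differ at 12 of 630 positions (98.1% identity). Of the 767 words of 31 bases in the main Gstp2 transcript, 599 occur in other genes, 534 of them in Gstp1, and 168 do not. The coding window of 60 bases with the most differences runs over coding bases 1 to 60 and holds 6 of the 12. It is shown from the GENCODE M21 transcripts with the differing bases in capitals. The untranslated parts of the transcripts were not compared in this way.
Gstp1: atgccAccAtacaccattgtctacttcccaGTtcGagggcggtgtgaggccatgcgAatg
Gstp2: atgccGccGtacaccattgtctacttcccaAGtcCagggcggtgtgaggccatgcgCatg

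By transcript, the difference in Gstp2 was seen in its main coding form. That form stood at 18.2, 16.9 and 13.8 TPM in LM2, against 1.2, 0.689 and 0.739 TPM in Parental. Its estimated counts summed to 676 in LM2 and only 43.8 in Parental. A retained-intron form of Gstp2 stood at 2.67, 1.63 and 2.74 TPM in LM2, against 2.06, 1.80 and 3.99 TPM in Parental, with the groups overlapping. Its estimated counts summed to 38.2 in LM2 and 49.9 in Parental. Of the 399 words of this form, 393 occur in Gstp1 and 6 occur in no other gene, so nearly all of it cannot be told apart from Gstp1. By the authors' estimates it took 12% ± 3.1 of the Gstp2 TPM in LM2 cells and 62.9% ± 22 in Parental cells (SD, n = 3 each). The size of the Gstp2 difference depended on the setting. With protein-coding transcripts alone the log2 fold change was 3.85 (edgeR adjusted p = 7.75e-11), with an offset for effective length 2.18 (edgeR adjusted p = 1.41e-05), and on log2(TPM + 1) and log2(TPM + 0.1) values 2.01 and 2.23 by limma. The call held in each. The authors' deposited table lists 4.03 for Gstp2.

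The ratio of the copies, which follows from the same estimates and is no separate evidence, differed between the lines. Counts of the main Gstp2 form were 3.04%, 2.81% and 2.24% of those of the main Gstp1 form in LM2, against 0.252%, 0.142% and 0.157% in Parental. Every LM2 ratio lay above every Parental ratio. Gstp3, the next gene of the cluster, shares only 5 of the 678 words of its coding form drawn in the transcript plot with other genes. Its estimated counts were 115, 113 and 138 in LM2, against 2, 0 and 3 in Parental, or 366 against 5 in all (edgeR adjusted p = 2.61e-12). Gstp3 was taken from the list of other transferases and not from the 10 genes, and its fitted fold change rests on those 5 counts. Summed as 1 feature, the 3 Gstp genes, without the pseudogene Gstp-ps, were 1.29-fold higher in LM2 (log2 fold change 0.36 ± 0.03 SE). Gstp1 supplied 94.7% ± 0.47 of the pi class TPM in LM2 and 99.1% ± 0.28 in Parental (SD, n = 3 each), with Gstp2 at 3.05% in LM2 and 0.870% in Parental. Among the 10 tested neighbours of Gstp2, which include Gstp1 and Gstp3, 6 were higher and 1 lower, with a median log2 fold change of 0.15.

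**Figure D3:**
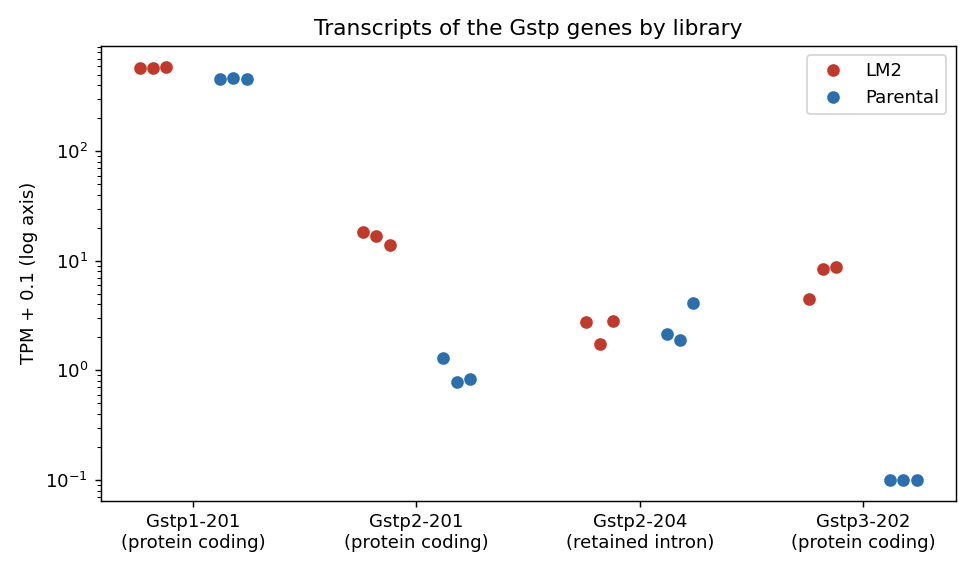
TPM plus 0.1 (log axis) of 4 transcripts, named on the horizontal axis, in the 3 LM2 (red) and 3 Parental (blue) libraries. The coding forms of Gstp2 and Gstp3 separate the lines widely and that of Gstp1 by a small step, the retained-intron form of Gstp2 overlaps, and the Gstp3 form is listed at 0 in the Parental libraries, drawn at the added 0.1.

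Promoter windows of the Gstp genes are shown because these neighbours were higher together by very different amounts. They are taken from RefSeq on build GRCm38.p6, from 250 bases before to 50 bases after a start site, on the minus strand, at chr19:4037863-4038162 for Gstp1, chr19:4042172-4042471 for Gstp2 and chr19:4059398-4059697 for Gstp3. The deposited tables use GRCm39, so these positions serve only to identify the windows. Capitals mark matches on either strand to the letters TGACNNNGC or TGAGNNNGC, forms of the antioxidant response element core, or TGAGTCA, the AP-1 site, which can lie inside the second of these.
Gstp1: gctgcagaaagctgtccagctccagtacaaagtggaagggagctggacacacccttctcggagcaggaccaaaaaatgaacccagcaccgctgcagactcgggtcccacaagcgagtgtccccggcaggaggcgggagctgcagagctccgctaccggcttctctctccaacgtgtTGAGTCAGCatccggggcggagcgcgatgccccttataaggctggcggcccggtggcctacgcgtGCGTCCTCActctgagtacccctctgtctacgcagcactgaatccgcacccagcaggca
Gstp2: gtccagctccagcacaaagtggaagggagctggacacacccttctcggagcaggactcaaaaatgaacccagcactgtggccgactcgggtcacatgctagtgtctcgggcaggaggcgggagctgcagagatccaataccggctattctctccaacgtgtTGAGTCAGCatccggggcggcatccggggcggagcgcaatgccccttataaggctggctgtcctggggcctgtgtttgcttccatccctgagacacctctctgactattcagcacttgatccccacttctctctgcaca
Gstp3: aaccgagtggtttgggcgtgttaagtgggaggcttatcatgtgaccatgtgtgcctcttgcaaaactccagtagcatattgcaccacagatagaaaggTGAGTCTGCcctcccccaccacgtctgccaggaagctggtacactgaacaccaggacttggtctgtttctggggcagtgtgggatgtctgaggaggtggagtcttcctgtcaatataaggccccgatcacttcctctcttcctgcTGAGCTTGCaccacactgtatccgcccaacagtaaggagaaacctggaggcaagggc

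The Gstp1 and Gstp2 windows are 77.1% identical over 319 aligned positions, and both hold TGAGTCAGC, starting at position -74 in Gstp1 and -89 in Gstp2 relative to the start site. Gstp1 has a second match to TGAGNNNGC on the other strand. The Gstp3 window is 50.8% identical to that of Gstp2, holds TGAGNNNGC at 2 places and does not hold TGAGTCA. Among 32851 windows of the same length, 17.6% hold TGAGNNNGC, 12.4% hold TGACNNNGC and 5.20% hold TGAGTCA. Windows were given for 8 of the 10 genes, not for Hmox1 and Gclc. Of these, Nfe2l2 and Gclm hold TGACNNNGC, once each. The windows of Keap1, Bach1, Nqo1 and Gstm1 hold none of the 3 sequences. A match is a run of letters in a short window and does not show binding.

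Per length, the order of the genes differed between the lines mainly through Hmox1, Gstm1 and Nfe2l2. In LM2 the order was Gstp1 at 608 ± 14 TPM, Gclm at 148 ± 7.5, Gstm1 at 103 ± 1.9, Hmox1 at 90.5 ± 5.3, then Nfe2l2 at 70.6 ± 1.6, Gclc at 69.1 ± 0.99 and Nqo1 at 68.3 ± 5.9, which lie within their spread of one another. Keap1 at 30.1 ± 1.2, Bach1 at 23.9 ± 0.89 and Gstp2 at 19.6 ± 1.2 TPM came last (SD, n = 3). In Parental cells Gstp1 at 480 ± 6.4 TPM was followed by Hmox1 at 215 ± 7.5 and Gclm at 136 ± 7.2. Gclc at 68.0 ± 0.46, Gstm1 at 63.9 ± 1.0, Nqo1 at 61.5 ± 1.2 and Nfe2l2 at 50.1 ± 2.0 TPM came next. Keap1 at 30.5 ± 1.8, Bach1 at 18.7 ± 0.59 and Gstp2 at 4.20 ± 1.2 TPM closed the order (SD, n = 3). In Parental cells Gstm1 and Nqo1 lay little more than their SDs apart. The Gclm level includes short transcripts that weigh heavily in TPM. The noncoding form alone stood at 42.6 TPM in LM2 and 37.2 TPM in Parental.

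For 6 of the 10 genes (Nfe2l2, Keap1, Bach1, Hmox1, Nqo1 and Gclc) no 31-base word occurs in another gene. In Gclm 5.85% of words do, and the noncoding form shares 225 of its 732 words with Ppia. The authors' deposited table lists log2 values of 0.47 for Nfe2l2, 0.32 for Bach1, -1.27 for Hmox1, 0.65 for Gstm1 and 0.32 for Gstp1. It lists -0.10 for Keap1, 0.12 for Nqo1, -0.01 for Gclc and 0.09 for Gclm. The tested genes closest to Nfe2l2 in their pattern over the 6 libraries were Ets1, H2afx and Wdtc1. Their Euclidean distances between centred log2 CPM values were 0.04, 0.05 and 0.05, among 9296 genes of at least 5 TPM. Predicted and unnamed genes were passed over. Those closest to Hmox1 were Sh3kbp1, Flrt2 and Fam149a, at 0.11, 0.14 and 0.15. With only 2 lines, such closeness mainly reflects a similar fold change. The log2 fold changes were 0.46, 0.49 and 0.47 for the genes near Nfe2l2, and -1.29, -1.39 and -1.34 for those near Hmox1. Shared regulation was not tested.

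The partners and regulators of NRF2 were mostly higher. Of 12 genes 11 were tested, and 8 were higher, 1 lower and 2 did not pass, with a median log2 fold change of 0.24 (81.8% called, against 62.4% of all tested genes). With an effective length offset 6 were higher, and 7 by limma on log2(TPM + 1) and on log2(TPM + 0.1). The list holds genes that act with NRF2 and genes that act against it, so these counts give no net direction. The small MAF protein Maff rose 1.44-fold to 11 CPM in LM2, against 7.66 CPM in Parental (edgeR adjusted p = 4.31e-06). Sqstm1, the autophagy receptor that captures KEAP1, rose 1.30-fold to 610 CPM in LM2, against 469 CPM in Parental. Gsk3b, a kinase that marks NRF2 for another ligase, rose 1.21-fold. The ring protein Rbx1 of the CUL3 ligase fell by 0.19 on the log2 scale, and Cul3 itself, at 137 CPM in LM2 and 132 CPM in Parental, did not pass.

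Other genes known as NRF2 targets were called in both directions. Of 24 genes 22 were tested, and 11 were higher, 8 lower and 3 did not pass, with a median of 0.05 (86.4% called, against 62.4% of all tested genes). The number lower depended on the setting, at 2 by limma on log2(TPM + 1) and on log2(TPM + 0.1) and 5 with an effective length offset or protein-coding transcripts alone, while 10 were higher in each of these. Me1 and Pgd, which supply NADPH, rose 1.55-fold and 1.41-fold. Me1 stood at 137 CPM in LM2 and 88.3 CPM in Parental, with 30.0% of its words shared with other genes. Pgd stood at 346 CPM in LM2 and 245.5 CPM in Parental and lies on chromosome 4, where the median of tested genes was 0.39. Taldo1, of the pentose phosphate pathway, fell by 0.41 on the log2 scale, and Gsr, glutathione reductase, by 0.29 on chromosome 8. The ferritin light chain Ftl1, at 1852 CPM in LM2 and 1821 CPM in Parental, did not pass, and 54.5% of its words are shared.

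Of 18 genes of glutathione synthesis and use beyond the ligase, 16 were tested, and 7 were higher, 8 lower and 1 did not pass, with a median of -0.10 (93.8% called, against 62.4% of all tested genes). Oplah, which recycles oxoproline to glutamate, rose 1.72-fold to 16.6 CPM in LM2, against 9.68 CPM in Parental, and Chac1, which cleaves glutathione, rose 1.56-fold. The glutaredoxin Glrx fell by 0.56 on the log2 scale to 19.1 CPM in LM2, against 28.1 CPM in Parental. Gpx4, the lipid hydroperoxide peroxidase, fell by 0.45, with 38.9% of its words shared. Gpx4 lies on chromosome 10, where the median of tested genes was -0.33. Gss, which completes glutathione after the ligase, fell by 0.41 to 30.9 CPM in LM2, against 41.0 CPM in Parental (edgeR adjusted p = 4.14e-08). Gpx8, at 40.0 CPM in LM2 and 41.0 CPM in Parental, did not pass.

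Of 23 other glutathione transferase genes 16 were tested, and 2 were higher, 7 lower and 7 did not pass, with a median of -0.16 (56.3% called, below the 62.4% of all tested genes). The theta class genes Gstt1 and Gstt3 fell by 1.25 and 0.89 on the log2 scale. Gstt1 stood at 11.1 CPM in LM2 and 26.4 CPM in Parental. Both lie on chromosome 10, where the median of tested genes was -0.33. A further theta class gene there, Gstt2, stood at 2.72 CPM in LM2 and 2.76 CPM in Parental and did not pass (edgeR adjusted p = 0.917). Gsto1, of the omega class on chromosome 19, rose 1.29-fold to 284 CPM in LM2, against 221 CPM in Parental, and the microsomal Mgst2, at 32.1 CPM in both lines, did not pass.

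Of 22 genes of heme and iron handling 20 were tested, and 8 were higher, 8 lower and 4 did not pass, with a median of 0.01 (80% called, against 62.4% of all tested genes). With an effective length offset 5 were higher and 6 lower. Genes such as Ftl1 and Fth1 stand both here and among the other NRF2 targets and are counted in each list. The constitutive heme oxygenase Hmox2, at 41.6 CPM in LM2 and 43.7 CPM in Parental, did not pass (edgeR adjusted p = 0.123), with 46% of its words shared. Biliverdin reductase Blvra, which acts on the product of heme oxygenase, fell by 0.39 on the log2 scale to 18.4 CPM in LM2, against 24.2 CPM in Parental. Alas1, which starts heme synthesis, fell by 0.32, while Ppox, a later enzyme of that path, rose 1.40-fold and the iron sensor Aco1 rose 1.31-fold. Aco1 had a log2 fold change of 0.39 and lies on chromosome 4, where the median of tested genes was also 0.39. The ferritin heavy chain Fth1, at 3104 CPM in LM2 and 3312 CPM in Parental, was lower by a log2 fold change of -0.09 (edgeR adjusted p = 0.000915).

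**Figure D4:**
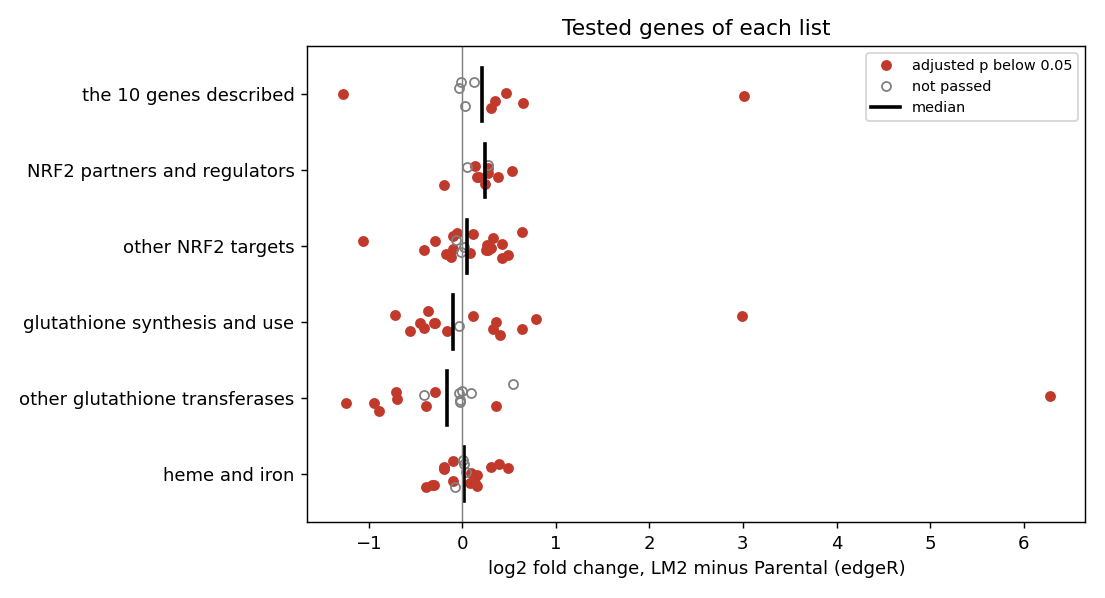
Log2 fold change (LM2 minus Parental, horizontal axis) of each tested gene in the 10 genes described and in 5 wider lists; filled points passed the adjusted p threshold, open points did not, and black bars are medians. The partner and regulator list lies mostly right of 0 with a median of 0.24, the other transferases mostly left with a median of -0.16, and Gstp3 stands far right at 6.28.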

How the data were processed

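RNA from LM2 and Parental cells (3 libraries each) was prepared with an mRNA kit per the labels. The authors deposited estimated counts, TPM and effective lengths per transcript. The submitters' processing notes name kallisto 0.46.2, edgeR 3.32.1 and build GRCm39. The transcript set and strand handling are not stated, so reads of overlapping genes cannot be told apart. Base and direction of the authors' deposited log2 fold changes were read from their closeness to the values computed here (93.1% of 10531 signs equal).

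Of 117486 transcripts, 99.1% were assigned to genes with GENCODE M21, which also gave the transcript types, chromosomes and gene order. The rest held 0.426% to 0.448% of counts and were left out. Estimated counts were summed per gene, rounded, filtered with filterByExpr, scaled with TMM and fitted with edgeR 4.0.16 in R 4.3.3 (robust quasi-likelihood, LM2 minus Parental, no covariate). The SE is the log2 fold change over the root of its F statistic, and 95% intervals are 1.96 SEs. TPM was summed per gene for levels. Alternatives used DESeq2 1.42.0, limma 3.58.1 and log2(TPM + 1 or 0.1). Tests were checked on simulated counts in which far fewer genes changed than were called here. That check therefore does not cover a difference as wide as the present one.

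The 10 genes and all lists were chosen with earlier results of these data known. Some genes stand in several lists and are counted in each. From each pathway list the text names up to 4 called genes of at least 5 TPM, 2 from each direction where both exist, by size of change, and the most abundant that did not pass. From each marker list it names the most abundant, and for Nfe2l2 and Hmox1 the 3 genes of most similar profile. Gss, Hmox2, Fth1, Gstt2, Gstm2, Gstm7, Cdh1, Krt18, Krt14, Epcam, Lyz2, Cd163, Adgre1 and Csf1r were added after their values were seen.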

Additional observations from a re-analysis of the deposited data

How the results depend on the processing

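Over 18 alternative settings, 170 of 177 recomputed log2 fold changes of the 10 genes kept their direction and side of the threshold, and none of the 6 called genes lost its call. The 4 that gained a call were Nqo1 (0.10 with no low-count filter, 0.13 with DESeq2, 0.19 without LM2 replicate 3, 0.12 with the replicate block). The 3 that changed sign were never called: Gclc at 0.022 with log2(TPM + 1) and 0.023 with log2(TPM + 0.1), and Gclm, which ran between -0.013 (without LM2 replicate 1) and 0.058 with 1 library left out. Among counts of called genes, other NRF2 targets lower in LM2 numbered 8, against 5 with an effective length offset, 5 with protein-coding transcripts, 2 with log2(TPM + 1) and 2 with log2(TPM + 0.1), and 7 to 8 with 1 library left out. Heme and iron genes higher in LM2 numbered 8, against 5 with an effective length offset and 6 to 8 with 1 library left out. The cause was not tested. With the replicate number as a block, though same-numbered libraries did not deviate together (correlations across genes of -0.078, 0.045 and 0.015), 6 of the 10 genes were higher and 1 lower, and 4149 and 4101 of all tested genes, against 4156 and 4116 without it. Few counts limit Gstp2 and Gstp3 in Parental cells. Shared sequence limits Gstp1, Gstp2, Gstm1 and the noncoding form of Gclm.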
